A study of Rattus norvegicus with 6 samples.

Results

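The miR-15 family was followed in hearts of rats with chronic colitis through 4 stems on a rat miRNA microarray, miR-15b, miR-16, miR-195 and miR-497. Members were all probes named for these stems, whichever arm of the hairpin they target. This gave 8 of the 761 rat miRNA probes, 4 for the 5p arms and 4 for the 3p arms. The array holds total RNA from hearts of adult male Sprague Dawley rats, 3 controls (replicates 9, 10 and 11) and 3 rats (replicates 13, 14 and 16) given dextran sodium sulfate (DSS) at 3% in the drinking water. DSS injures the colon lining, and it was given for 5 days and then withheld for 9 days, in 4 cycles over 8 weeks. The rats were littermates without a transgene or deletion, and each array carried the RNA of 1 heart. The labels name no slide, scan or other batch. RNA came from heart tissue with all of its cell types, so fewer cells of a type and less of a miRNA per cell cannot be told apart.

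A miRNA pairs with messenger RNAs mainly through its seed, bases 2 to 8 from the 5′ end, and lowers their translation and stability. Members of the miR-15 family share 1 seed and repress cyclins, checkpoint kinases and the survival protein BCL2. In the mammalian heart the family is known for restraining cardiomyocyte division after birth, and its inhibition prolongs the period in which cardiomyocytes can divide. Because the family is defined by its seed, the sequences that the 4 probes of the 5p arms target are shown with the seed in capitals. The prefix rno, for the rat, is left out elsewhere.
rno-miR-15b-5p: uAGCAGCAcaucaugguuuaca
rno-miR-16-5p: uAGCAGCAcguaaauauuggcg
rno-miR-195-5p: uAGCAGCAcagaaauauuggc
rno-miR-497-5p: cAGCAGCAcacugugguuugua
Another pair of probes outside these stems carried the same seed, and they are used below as relatives.
rno-miR-15a-5p: uAGCAGCAcauaaugguuu
rno-miR-322-5p: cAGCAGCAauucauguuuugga

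The members were annotated at 2 loci. In the RefSeq annotation of the rat genome build GRCr8, which held all 8 members with the same sequences as the array's probe table, miR-15b-5p lies at chr2:155555197-155555218 and miR-16-5p at chr2:155555343-155555364, both on the plus strand. The 5p arms are separated by 124 bases and lie within the span of Smc4, which encodes a condensin subunit. The other locus is on chromosome 10, where miR-497-5p lies at chr10:55450172-55450193 and miR-195-5p at chr10:55450509-55450529 on the plus strand, with 315 bases between them. The relative miR-15a-5p had no entry under the array's name. Whether a further locus also yields miR-16-5p was not tested. Likeness of sequence did not follow the loci. miR-16-5p and miR-195-5p, from different chromosomes, differed by an edit distance of 3, the smallest between any 2 members, whereas the neighbors miR-15b-5p and miR-16-5p differed by 8 and the neighbors miR-195-5p and miR-497-5p by 9. Binding of either miR-16-5p or miR-195-5p to the probe of the other was not tested.

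For each array the brightness of 4 spots per probe was corrected for background, averaged as log2 values and brought to a common scale by cyclic LOWESS. A miRNA entered the comparison when it was detected on at least 3 of 6 arrays, which held for 282 of the 761. Detection on the single arrays ranged from 223 to 283 miRNAs in control and from 239 to 365 in DSS hearts. The heart's own miRNAs were checked. Of the 6 cardiomyocyte markers, miR-1-3p, miR-133a-3p, miR-133b-3p and miR-499-5p were detected on all 6 arrays, miR-208a-3p on 1 and miR-208b-3p on 0. The 11 perfect-match spike-in probes read lower on the DSS arrays than on the control arrays, in 11 of 11 cases, by 0.54 to 1.49 on the log2 scale before normalization. DSS replicate 13 stood nearer to the controls, with a mean spike-in log2 brightness of 10.49 against 9.44 and 9.71 on DSS replicates 14 and 16 and 10.69 to 10.94 on the control arrays. The part of the spike-in difference in the results was not tested, and the changes of the members are also given with these probes as the scale.

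The 5p arms of 3 stems, miR-16-5p, miR-195-5p and miR-497-5p, were lower in DSS hearts, and miR-15b-5p was not. The family was compared with limma, with Benjamini-Hochberg adjustment of its p-values across the 282 miRNAs. Of the 4 members tested, 3 were called lower and 0 higher at an adjusted p under 0.05. Over all miRNAs tested 80, or 28.4%, were called lower and 59, or 20.9%, higher, so that 49.3% were called in either direction. The median log2 change was -1.21 over the 4 members and -0.06 over all miRNAs tested. At an unadjusted p under 0.05 the numbers for the family were also 3 lower and 0 higher, beside 91 lower and 74 higher of the 282. On the LOWESS scale the groups did not overlap for all 4 members, with DSS below control for 3 and above it for 1. This was so for 66.3% of all miRNAs tested, with DSS below control for 34.8% and above it for 31.6%.

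The signal of rno-miR-16-5p, a member transcribed in nearly all tissues and abundant in red blood cells, was 12.68, 11.54 and 11.99 on the log2 scale in control replicates 9, 10 and 11 and 11.07, 10.20 and 10.20 in DSS replicates 13, 14 and 16. On this LOWESS scale all 3 DSS values lay below the lowest control, and DSS replicate 13 was the nearest to it. Before normalization the groups overlapped, with DSS replicate 13 at 11.73 and control replicate 10 at 11.68. The mean fell by 1.58 on the log2 scale, from 12.07 ± 0.57 to 10.49 ± 0.50 (SD, n = 3 each; standard error of the change 0.37, adjusted p = 0.0180 in limma), a 2.99-fold decrease. In the authors' processed intensities, which are linear and also passed a LOWESS filter, miR-16-5p read 6735, 3472 and 4380 in control and 2300, 905 and 1172 in DSS hearts, without overlap.

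The values of rno-miR-195-5p, which is known to rise in the hypertrophic heart and to restrain cardiomyocyte division after birth, were 12.61, 11.62 and 11.92 in control and 11.08, 10.44 and 10.32 in DSS hearts, in the same order of replicates. The groups did not overlap, and control replicate 9 was again the highest and DSS replicate 13 the highest of its group. Before normalization DSS replicate 13, at 11.74, lay just below control replicate 10, at 11.76. The mean fell by 1.44 on the log2 scale, from 12.05 ± 0.51 to 10.61 ± 0.41 (SD, n = 3 each; standard error 0.33, adjusted p = 0.0170 in limma), a 2.71-fold decrease. The authors' intensities for miR-195-5p were 6446, 3680 and 4215 in control and 2381, 1076 and 1288 in DSS hearts.

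For rno-miR-497-5p, processed from the same locus as miR-195, the log2 signal was 9.14, 8.83 and 8.52 in control and 7.60, 8.11 and 7.83 in DSS hearts. The groups were separate here as well, and DSS replicate 13 was the lowest array on this scale. Before normalization the lowest was DSS replicate 16, at 7.75 against 8.23 and 8.15 on DSS replicates 13 and 14, and DSS replicate 16 was also the lowest in the authors' intensities, which were 590, 393 and 315 in control and 141, 174 and 136 in DSS hearts. The mean fell by 0.99, from 8.83 ± 0.31 to 7.84 ± 0.26 (SD, n = 3 each; standard error 0.24, adjusted p = 0.0182 in limma), a 1.98-fold decrease. This was the dimmest of the 5p probes. The mean of its 4 spots was between 145.7 and 352.6 brightness units above the background on the 6 arrays, where the detection limit was at most 59.3 units. It was detected by 4 of 4 spots on each array. Its log2 change was -1.25 with plain background subtraction and -1.48 in the authors' processed values.

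The pattern of rno-miR-15b-5p, the genomic neighbor of miR-16, was different. Its log2 signal was 8.93, 10.22 and 10.28 in control and 10.68, 10.73 and 10.37 in DSS hearts. Control replicate 9 was far below the other arrays, and the remaining controls lay just under the lowest DSS value. The control mean was 9.81 ± 0.76 and the DSS mean 10.60 ± 0.19 (SD, n = 3 each), a log2 change of 0.78 (standard error 0.38, 95% interval -0.13 to 1.69) that was not called (adjusted p = 0.121 in limma). Without control replicate 9 the log2 change was 0.19 (adjusted p = 0.490). In the authors' processed intensities the groups overlapped, with 539, 1242 and 1267 in control and 1649, 1115 and 1340 in DSS hearts. A decrease of the size measured for miR-16-5p lay outside the interval.

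**Figure D1:**
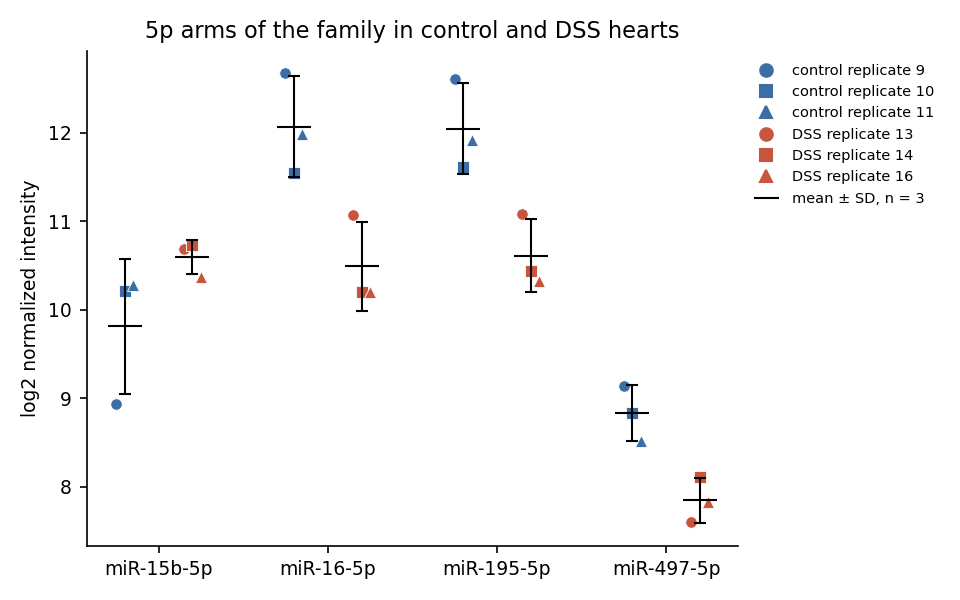
Log2 normalized intensity (y axis) of the probes for the 4 5p arms on each of the 6 arrays, with the mean and SD of 3 arrays per group; heights can be compared within a probe but not between probes. The DSS values of miR-16-5p, miR-195-5p and miR-497-5p lie below every control value, whereas those of miR-15b-5p lie just above the controls, of which replicate 9 is low at 8.93.

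The CV of the 4 spots of a 5p arm above background was between 1.87% and 20.5% per array, with a median of 10.3%. This is the technical error within an array and does not measure the spread between hearts. The calls changed with the arrays used. Without DSS replicate 16 limma called 0 of the 4 members after adjustment, beside 0 of all 268 miRNAs tested. At an unadjusted p under 0.05, 3 members were still lower there, beside 69 lower and 55 higher of all miRNAs. Without DSS replicate 14 limma called 1 member, miR-497-5p, beside 30 lower and 36 higher of all 261 tested. With any other single array left out 3 members were called lower, beside 53 to 77 of all miRNAs tested.

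The 3p arms, the strand of each hairpin that is usually degraded, were near the background, and none was detected on 3 arrays. miR-497-3p was detected on 0 arrays, miR-15b-3p on 1 (DSS replicate 13), and miR-16-3p and miR-195-3p each on 2 (control replicate 9 and DSS replicate 13). Control replicate 9 and DSS replicate 13 had the lowest detection limits of the 6 arrays. Log2 signals of all 4 probes lay between 5.96 and 6.89 over the 6 arrays. With all probes tested in limma, 0 of the 4 were called, and the log2 changes were -0.33 for miR-15b-3p, -0.18 for miR-16-3p, -0.17 for miR-195-3p and 0.16 for miR-497-3p (adjusted p between 0.325 and 0.550). No fold is given for signals this close to the background.

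Because 1 scaling factor per array cancels when 2 probes of an array are subtracted, the members were also compared with each other within each array. This addresses whether the family moved as a unit. The differences are of LOWESS values, whose correction varies with brightness and does not cancel in full. The shifts without normalization are therefore given as well. The log2 difference of miR-15b-5p minus miR-16-5p was -3.74, -1.33 and -1.71 in control replicates 9, 10 and 11 and -0.39, 0.53 and 0.18 in DSS replicates 13, 14 and 16. Every DSS heart therefore had relatively more miR-15b-5p signal for its miR-16-5p signal than every control heart. The mean difference moved from -2.26 ± 1.30 to 0.10 ± 0.46 (SD, n = 3 each), a shift of 2.36 on the log2 scale or 5.14-fold (2-sided exact permutation test, p = 0.1, the smallest that 3 arrays against 3 allow, and 0.2 after adjustment over 6 pairs). The shift was 1.78 without control replicate 9, with the groups still apart. It was 2.48 on values without normalization, and this figure holds for scaling to the spike-in or 5S rRNA probes too, since these apply 1 factor per array.

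The remaining pairs with miR-15b-5p shifted in the same direction. Its difference from miR-195-5p shifted by 2.22, from -2.24 ± 1.25 in control to -0.02 ± 0.35 in DSS hearts, and its difference from miR-497-5p by 1.77, from 0.98 ± 1.05 to 2.75 ± 0.29 (SD, n = 3 each; exact permutation p = 0.1 and adjusted 0.2 for each pair). In both pairs all 3 DSS values lay above all control values. How often this holds for pairs of other miRNAs was not determined, and for single miRNAs the groups did not overlap in 66.3% of cases. The 3 pairs with miR-15b-5p share its values, with the low control replicate 9, so they are not independent of each other. The size of the shift against miR-497-5p rested in part on control replicate 9, without which it was 1.04 (2.05-fold) with the groups still apart, and it was 1.28 without normalization. Without control replicate 9 the shift against miR-195-5p was 1.67, and without normalization it was 2.34. In contrast, miR-16-5p and miR-195-5p kept close together on every array. Their difference lay between -0.07 and 0.07 in control and between -0.23 and -0.01 in DSS hearts, a shift of -0.14 with overlapping groups (exact permutation p = 0.2, adjusted p = 0.3). Without normalization this shift was also -0.14.

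The difference of miR-16-5p minus miR-497-5p was 3.24 ± 0.46 in control and 2.65 ± 0.73 in DSS hearts, and that of miR-195-5p minus miR-497-5p was 3.22 ± 0.38 and 2.77 ± 0.63 (SD, n = 3 each). The shifts of -0.59 and -0.45 were smaller than the SD of the DSS arrays but larger than that of the control arrays (exact permutation p = 0.3 and 0.4, adjusted p = 0.36 and 0.4). Without normalization the same shifts were -1.20 and -1.06. Without DSS replicate 14 they were -0.11 and -0.030, and without DSS replicate 13 they were -0.89 and -0.70, there with the groups apart. Whether miR-497-5p fell less than miR-16-5p and miR-195-5p could not be settled with these arrays.

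**Figure D2:**
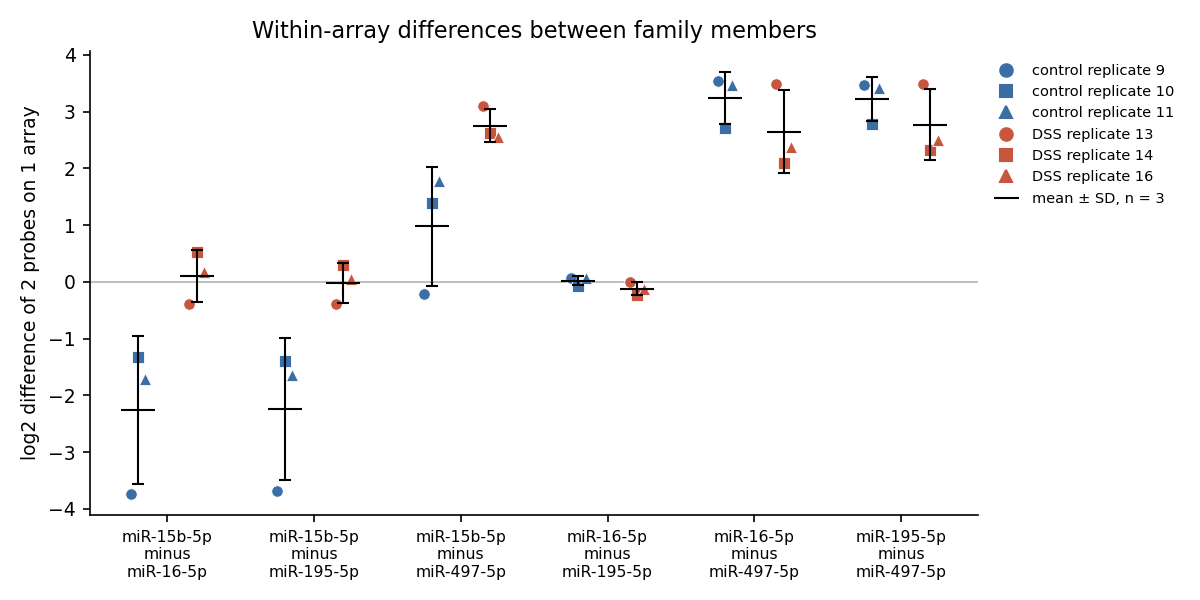
Log2 difference of 2 probes on 1 array (y axis), after LOWESS, for the 6 pairs of 5p arms, shown for each of the 6 arrays with the mean and SD of 3 arrays per group. In the 3 pairs with miR-15b-5p, which share its values, all DSS values lie above all control values, by 2.36, 2.22 and 1.77 on average. In the other 3 pairs the groups overlap.

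The direction and size of a change in a single probe depend on the scale set between arrays. Without normalization the log2 changes were 0.72 for miR-15b-5p, -1.76 for miR-16-5p, -1.63 for miR-195-5p and -0.57 for miR-497-5p, and the call of miR-497-5p was lost (adjusted p = 0.0864). Scaled to the 5S rRNA probes, which raised the median change of all tested miRNAs to 0.78, the changes were 1.14, -1.34, -1.20 and -0.14 in the same order, and 0 of the 4 were called, with 2 lower at an unadjusted p under 0.05. Scaled to the 11 spike-in probes, which raised that median to 1.31, they were 1.67, -0.81, -0.68 and 0.38. Here miR-15b-5p was called higher (adjusted p = 0.00275), no member was called lower, also not at an unadjusted p under 0.05, and miR-497-5p was no longer below control. Over all miRNAs tested spike-in scaling called 168 higher and 10 lower, and 5S rRNA scaling 129 higher and 14 lower, against 59 and 80 with LOWESS. At an unadjusted p under 0.05 spike-in scaling gave 178 higher and 12 lower, and 5S rRNA scaling 137 higher and 25 lower. Relative to the median miRNA, miR-16-5p, miR-195-5p and miR-497-5p were lower and miR-15b-5p was higher with LOWESS and also without it. The latter position is the same for both scalings and for no normalization, since 1 factor per array moves the median by as much as the member.

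**Figure D3:**
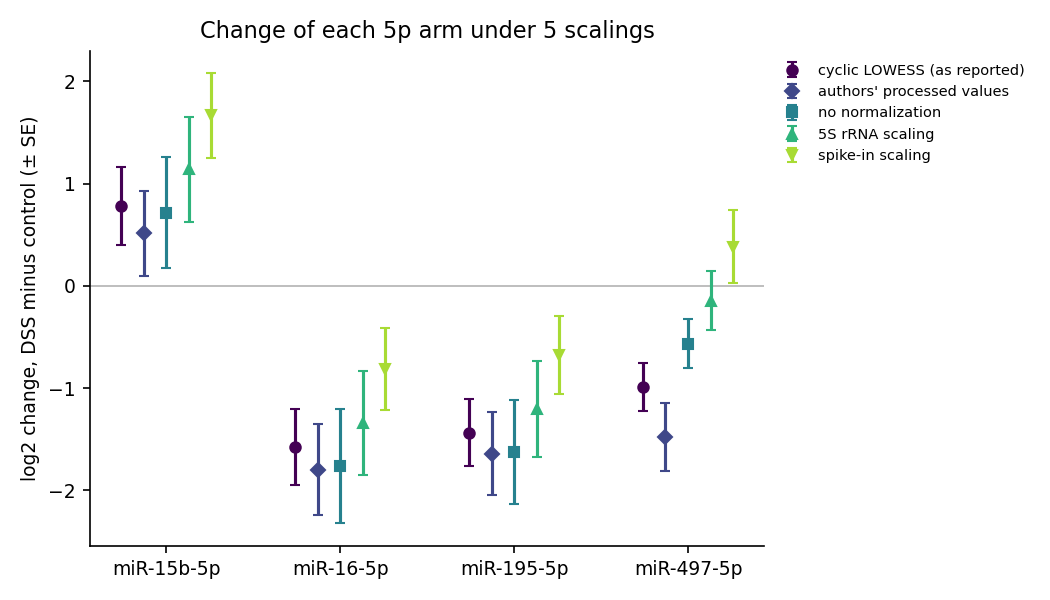
Log2 change of DSS minus control (y axis, with the standard error of the fit) of the 4 5p arms under 5 ways of setting the scale between the 3 control and 3 DSS arrays. miR-16-5p and miR-195-5p stay below 0 and miR-15b-5p above 0 under all 5, while miR-497-5p moves from -0.99 with LOWESS to 0.38 with spike-in scaling.

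The family is the core of a wider group that carries AGCAGC from the first or second base of the miRNA. On the array 9 of the 761 miRNAs, or 1.18%, began in this way, namely the 4 members, miR-15a-5p, miR-322-5p (the rodent counterpart of human miR-424), miR-503-5p, miR-103-3p and miR-107-3p. The last 2 carry the motif from base 1, which gives them another seed, and are known for regulating insulin sensitivity. Of the 5 relatives, 4 were tested, 2 were called lower (miR-322-5p and miR-103-3p) and 0 higher, beside 28.4% of all miRNAs lower. Their median log2 change was -0.98. The calls depended on the scale, with 0 of the 4 called lower without normalization and under spike-in or 5S rRNA scaling, and 4 of 4 with plain background subtraction, with quantile normalization and in the authors' values. miR-503-5p, whose seed differs in its last base, was detected on 0 arrays.

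The closest relative of miR-15b-5p in sequence, miR-15a-5p, has the same first 11 bases. Its log2 signal was 11.50, 9.41 and 10.77 in control and 9.59, 9.02 and 8.75 in DSS hearts. The spread among the controls was wide and DSS replicate 13 lay above control replicate 10. The control mean was 10.56 ± 1.06 and the DSS mean 9.12 ± 0.43 (SD, n = 3 each), a log2 change of -1.44 that was not called in limma (standard error 0.53, adjusted p = 0.0597). The corresponding change for miR-15b-5p was 0.78, and the highest control array for miR-15a-5p, replicate 9, was the lowest for miR-15b-5p.

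For miR-322-5p, encoded on chromosome X in a cluster with miR-503, the log2 signal was 12.70, 11.26 and 12.21 in control and 11.11, 9.78 and 9.75 in DSS hearts. The groups did not overlap, and the mean fell by 1.84 (standard error 0.50, adjusted p = 0.0229 in limma). The call was lost without control replicate 11, DSS replicate 14 or DSS replicate 16, with adjusted p-values of 0.0653, 0.0900 and 0.0971. It was also lost without normalization (-2.01, adjusted p = 0.0512), under 5S rRNA scaling (-1.59, adjusted p = 0.0578) and under spike-in scaling (-1.06, adjusted p = 0.0615). With miR-103-3p the decrease was small, 0.52 on the log2 scale (standard error 0.17, adjusted p = 0.0393), and miR-107-3p, which differs from it by an edit distance of 1, changed by -0.48 (adjusted p = 0.0558). Both read 0.37 and 0.40 above control under spike-in scaling, and leaving out any 1 of the 6 arrays removed the call of miR-103-3p.

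**Figure D4:**
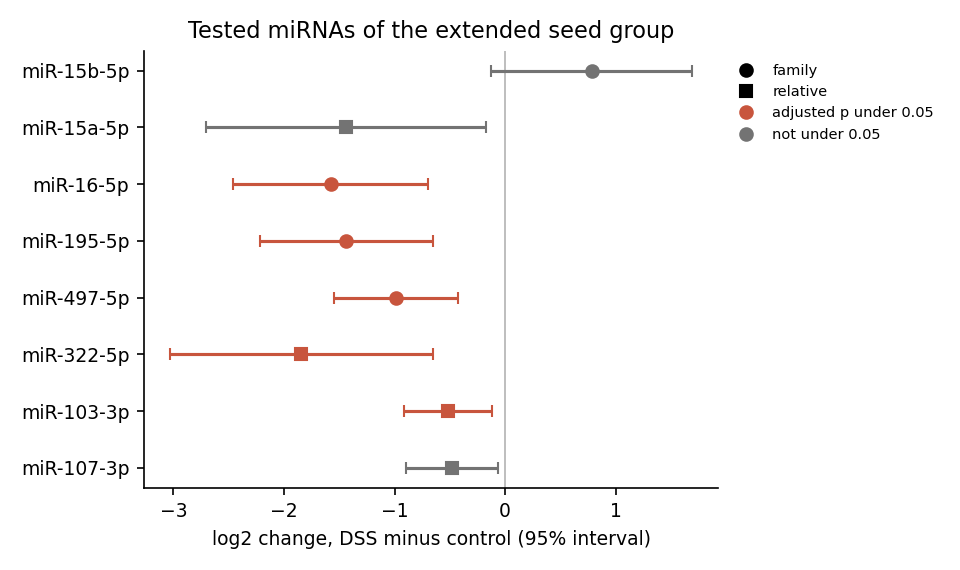
Log2 change of DSS minus control with its 95% interval from limma (x axis) for the 8 tested miRNAs of the extended seed group, 4 members (circles) and 4 relatives (squares), red where the adjusted p was under 0.05. Among the 8, with LOWESS, miR-15b-5p is the only one with a change above 0, at 0.78, whereas under spike-in scaling miR-497-5p, miR-103-3p and miR-107-3p are above 0 too.

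Over the 6 arrays the normalized log2 signals of miR-16-5p and miR-195-5p had a Pearson's r of 0.998, and those of miR-497-5p had an r of 0.788 with miR-16-5p and of 0.821 with miR-195-5p. The r of miR-15b-5p with each of the other 3 was between -0.800 and -0.788. These values are a description, since the 6 arrays come from 2 groups that differ. Among the 173 other miRNAs detected on all arrays, the patterns most like the mean of the 4 members, by r over the 6 arrays, were those of miR-148a-3p (0.985), miR-451-5p (0.985), miR-99a-5p (0.984), miR-322-3p (0.982) and miR-145-3p (0.981). The red cell miRNA miR-451-5p and the passenger arm miR-322-3p are thus among the nearest. They resembled miR-16-5p, miR-195-5p and miR-497-5p and ran opposite to miR-15b-5p, with which their r was between -0.756 and -0.700. All 5 were called lower in DSS hearts, with log2 changes of -2.49, -2.53, -2.29, -1.38 and -1.72, beside 28.4% of all miRNAs tested. They were picked on these same arrays by likeness to a mean that is lower in DSS hearts. Their direction, also against miR-15b-5p, therefore follows from the choice and is no separate result.

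Other miRNAs known to act on cardiomyocyte division were read beside the family. Of those that raise it, from the miR-17~92 and miR-106b~25 clusters and miR-199a, 10 had probes and 8 were tested. Of these 5 were called lower and 0 higher, beside 28.4% and 20.9% of all miRNAs tested, with a median log2 change of -0.87. Among those called lower were miR-20a-5p (-1.19) and miR-93-5p (-0.99), and also miR-106b-5p (-1.68) and miR-19b-3p (-1.55), which were each detected on 3 control arrays but 1 DSS array. The size for these last miRNAs depended on the background correction, and with plain subtraction it was -2.52 and -4.75. The counts of this list depended on the detection rule. With detection required on all 6 arrays, 6 were tested, of which 3 were called lower and 1, miR-92a-3p, higher. Of all 177 miRNAs tested in that way, 47 were called lower and 48 higher. miR-92a-3p (1.11, adjusted p = 0.0501), miR-17-5p (-0.65) and miR-25-3p (-0.37) were not called. The other list held 5 miRNAs that restrain division, all tested, of which 3 were called, beside 49.3% of all miRNAs in either direction. The muscle miRNA miR-1-3p was higher by 3.11, miR-29a-3p and the p53 target miR-34a-5p were lower by 1.26 and 0.89 on the log2 scale, and miR-133a-3p (-0.67, adjusted p = 0.0527) and miR-128-3p (-0.91, adjusted p = 0.0709) were not called. Without DSS replicate 16 limma called 0 of either list, and without DSS replicate 14 it called 1 of the first lower and miR-1-3p of the second higher. Of all miRNAs tested, these fits called 0 of 268, and 30 lower and 36 higher of 261. With spike-in scaling 1 of the first list and 1 of the second were called higher and 0 lower.

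Since miR-16 is abundant in red blood cells, the red cell miRNAs were set beside it. Of 4 on the list, 3 were tested. The defining marker miR-451-5p read 12.45, 10.99 and 11.17 in control and 9.84, 9.05 and 8.13 in DSS hearts, a change of -2.53 on the log2 scale (adjusted p = 0.0161), and miR-144-5p from the same cluster was called lower (adjusted p = 0.0224). However, miR-144-5p was detected on 2 control arrays and 1 DSS array, and its log2 change of -0.94 was -3.90 with plain background subtraction. In contrast, miR-486, also abundant in red cells and made in muscle, rose by 2.36 (adjusted p = 0.0151), and miR-144-3p was detected on 0 arrays. The mean log2 signal over the 4 probes was between 8.37 and 8.83 on the control and between 8.05 and 8.45 on the DSS arrays. The part of blood in the decrease of miR-16-5p was not tested.

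Of the 4 cardiomyocyte miRNAs tested, miR-1-3p was called higher, miR-499-5p lower by 2.09, and miR-133a-3p and miR-133b-3p (-0.34) were not called, beside 49.3% called of all miRNAs. Without normalization, and with quantile or either 75th percentile scaling, miR-133a-3p and miR-133b-3p were called lower too. Of the leukocyte list, 2 of 4 were tested and miR-150-5p was higher by 1.59 and miR-223-3p, detected on 2 of 3 DSS arrays, lower by 1.35. Of 3 fibroblast miRNAs, miR-214-3p was higher by 1.12, and miR-199a-5p and miR-199a-3p were lower by 1.58 and 0.75. In smooth muscle miR-145-5p was lower by 0.98, and miR-143-3p (-0.47, adjusted p = 0.0910) was not called. The endothelial miR-126a-3p was lower by 1.28, and miR-126a-5p (-1.21, adjusted p = 0.237) was not called. Without DSS replicate 16 limma called 0 members of these lists and of the red cell list, beside 0 of all 268 miRNAs tested. Under spike-in scaling 0 fibroblast, leukocyte, smooth muscle or endothelial miRNAs were called lower. The part of these cell types in the changes of the family was not tested.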

How the data were processed

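Total RNA of 6 hearts was tailed, tagged and hybridized by a service provider, 1 array per heart, in 1 color. Each array has 3968 spots, with 3044 for 761 rat miRNAs. The deposited scanner intensity values are the median brightness and pixel SD of each spot, on a linear scale, with background and without normalization. The authors' processed intensity table holds linear values after background subtraction and a LOWESS filter. How repeated spots were combined and which scanner software was used is not given in the sources used here.

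Scanner values were corrected with normexp (offset 50) in limma 3.58.1 (R 4.3.3), averaged on the log2 scale over 4 spots and normalized by cyclic LOWESS on every miRNA probe, with a span of 0.7 and 3 iterations. For detection, the dimmest 25% of miRNA spots gave the background as their median. A spot passed above 3 SD of the empty spots with a CV under 0.5, and a miRNA was detected with 2 of 4 spots passing. limma (lmFit, eBayes) compared 3 control with 3 DSS arrays, and p-values were adjusted over the 282 miRNAs detected on at least 3 arrays. Pairs of members were compared within arrays by a 2-sided exact permutation test over 20 arrangements. Figures were drawn with matplotlib 3.10.9.

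The fit was tested on simulated data, in 10 runs with a log2 change of 2 in 60 miRNAs. Of the changed miRNAs tested 98.3% were called, 0 with the wrong sign, and 4.35% of calls were of unchanged miRNAs. The median estimate was 1.48, smaller than the change put in. The simulated noise was independent between miRNAs and arrays, without the spike-in difference between groups seen here. Members and lists were chosen with earlier results of these data known. The text names the members, the matches of the extended seed group, the 5 miRNAs most alike in pattern, and called members of the lists, at most 4 each, with members not called given by value. A total of 23 alternatives were planned, and LOWESS fitted on detected miRNAs was added after seeing the data. The limma p-values set each change against the spread among 3 hearts per group, with variances moderated over all miRNAs tested. The permutation p-values rest on the arrangement of the arrays and cannot fall below 0.1. The number of arrays limits the precision.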

Additional observations from a re-analysis of the deposited data

How the results depend on the processing

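The calls rest on few arrays and on the scale between them. The log2 change of miR-16-5p was below 0 under all 24 alternatives and that of miR-195-5p likewise, and that of miR-15b-5p was above 0 under all 24. Alternatives that changed only the detection rule, the filter on dim probes or the test could not move these values, so their signs were fixed in advance. Calls were lost as follows. Under spike-in scaling the log2 changes were -0.81 for miR-16-5p, -0.68 for miR-195-5p and, reversed, 0.38 for miR-497-5p, while miR-15b-5p was called at 1.67, which makes 0 members lower and 1 higher. Under 5S rRNA scaling they were -1.34, -1.20 and -0.14, with 0 members called. With all miRNA probes tested miR-16-5p (-1.58) and miR-195-5p (-1.44) missed the threshold and 1 member was called. The methods' t-test was run here on the LOWESS values with Benjamini-Hochberg adjustment, which the study's methods do not name. So adjusted, the t-test left 0 of the 3 (-1.58, -1.44 and -0.99), while all 3 were at an unadjusted p under 0.05. The call of miR-497-5p was also lost without normalization (-0.57) and with 75th percentile scaling on miRNAs detected on all arrays (-0.75). With 1 array left out the log2 change ranged from -1.92 to -1.16 for miR-16-5p, from -1.73 to -1.08 for miR-195-5p, from -1.21 to -0.81 for miR-497-5p and from 0.19 to 0.95 for miR-15b-5p, and 0 to 3 members were called lower. Of all miRNAs tested, the numbers called higher and lower, 59 and 80 here, were 81 and 38 without normalization, 49 and 51 with that 75th percentile, 48 and 47 with detection required on all 6 arrays, 92 and 80 with LOWESS on detected miRNAs, chosen after seeing the data, 32 and 42 with all probes tested, 0 and 0 in the methods' t-test (71 and 84 unadjusted), 168 and 10 under spike-in and 129 and 14 under 5S rRNA scaling, and between 0 and 63 and 0 and 77 with 1 array left out.

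In the within-array differences no pair reversed. Without normalization the shift of miR-16-5p minus miR-497-5p was -1.20 and of miR-195-5p minus miR-497-5p -1.06. With 1 array left out these ranged from -0.94 to -0.11 and from -0.75 to -0.030, and the shifts of miR-15b-5p against miR-16-5p, miR-195-5p and miR-497-5p from 1.78 to 2.87, from 1.67 to 2.69 and from 1.04 to 2.15. No paired analysis was possible because the replicate numbers of the groups are not shared. The signal over background limits the 3p arms, of which 4 could be tested without a filter on dim probes and 1 with detection at 2 SD, with 0 called in both.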
